A study of Mus musculus with 9 samples.

Results

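Intraepithelial lymphocytes are T cells that sit between the epithelial cells of the gut, and their transcripts were read here in RNA from isolated small intestine epithelial cells of mice. The genes described are 33 of the 43629 in the count table, taken by name: members of the T cell receptor complex, co-receptors and surface receptors, receptor-proximal signalling proteins, cytotoxic effectors and chemokines, and homing and retention receptors. All 33 were found and all 33 passed the filter on low counts, which kept 15486 genes. The 9 libraries comprised 3 from HIF1α∆IEC mice, 3 from HIF2α∆IEC mice and 3 from littermate controls labelled HIFαF/F. HIF1α and HIF2α are oxygen-sensitive transcription factor subunits that accumulate in hypoxia, and ∆IEC marks their loss in intestinal epithelial cells, not in lymphocytes. The labels call all mice naïve, whereas the extraction text names an arthritis model. They give neither the Cre driver, nor which floxed gene the controls carry, nor the age or sex of the mice. Nor is it stated whether libraries correspond to separate animals, so p-values reflect the spread among these libraries alone, part of which may be technical.

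Most intraepithelial lymphocytes carry the T cell receptor, either αβ or γδ, often with a homodimer of the CD8α chain, and hold granzymes ready for killing. They stay in the epithelium through an integrin made of αE and β7, which binds E-cadherin on epithelial cells, and they depend on interleukin-15 presented by those cells. Isolated epithelial fractions of the small intestine usually hold some of them.

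In HIF2α∆IEC replicate 1 every one of the 33 genes was higher than in the other 8 libraries. Their summed level was 4605 CPM (counts scaled to a common library size, with TMM factors) in that library, against 496 and 464.9 CPM in the other HIF2α∆IEC libraries. It was 800.7, 945.8 and 1395 CPM in HIF1α∆IEC, and 635, 822.3 and 663.1 CPM in control. As a share of all counts the 33 genes made up 0.463% of HIF2α∆IEC replicate 1 and between 0.0498% and 0.131% of the others. The library was the highest of the 9 for 33 of 33 members and for 19.7% of all genes tested. It lay more than 4-fold above the control mean for 32 of 33 members and for 3.7% of all genes tested. The exception was Thy1, at 3.78-fold, and the highest ratio was that of Cd69, at 13.0-fold. HIF1α∆IEC replicate 3 was the second highest library for 24 of the 33 genes, and HIF2α∆IEC replicates 3 and 2 were the lowest for 15 and 9. In bulk RNA, fewer cells of a type and less RNA per cell cannot be told apart.

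**Figure D1:**
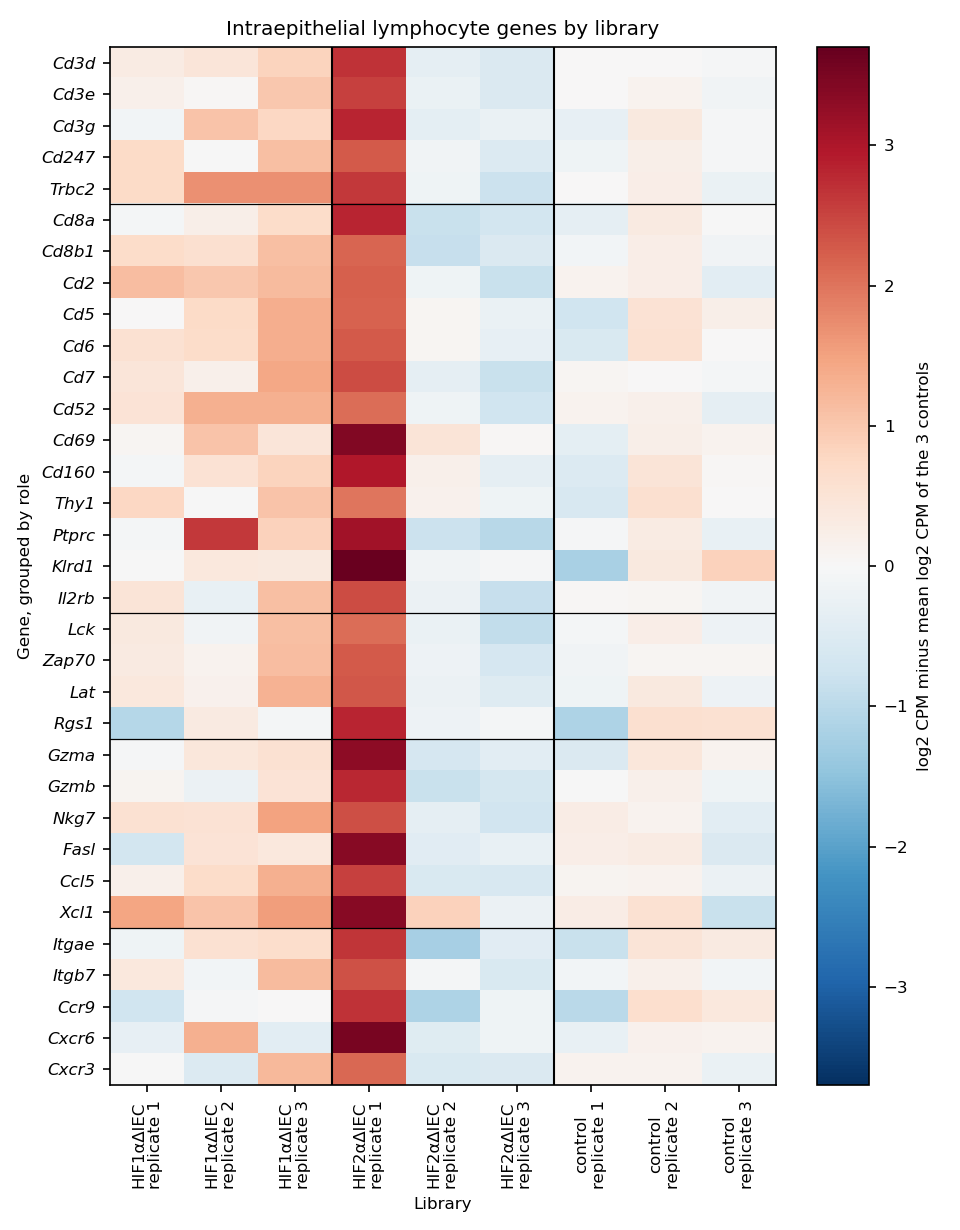
Level of each of the 33 genes (rows, in blocks by role) in each of the 9 libraries (columns), as log2 CPM minus the mean log2 CPM of the 3 controls. The column of HIF2α∆IEC replicate 1 is the highest in all 33 rows, and HIF2α∆IEC replicates 2 and 3 lie below all 3 controls in 18 and 19 rows.

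Libraries differed in other ways. Total counts ran from 20959964 to 40391453. Mitochondrial transcripts took 10.8% of the counts of HIF2α∆IEC replicate 1 and 12.2% of HIF1α∆IEC replicate 2, against 5.04% to 6.74% in the other 7. Xist and 4 Y-linked genes placed the 3 controls, HIF1α∆IEC replicate 1 and HIF2α∆IEC replicate 1 as male and the other 4 libraries as female. Among the male libraries the members' summed level was 800.7 CPM in HIF1α∆IEC and 4605 CPM in HIF2α∆IEC, against 635 to 822.3 CPM in control. Among the female libraries it was 496 and 464.9 CPM in HIF2α∆IEC, against 945.8 and 1395 CPM in HIF1α∆IEC. No control was female, so for these libraries a difference from control cannot be told apart from a difference of sex. The transcripts of the deleted genes did not pass the test: Hif1a had a log2 fold change of 0.88 ± 0.46 in HIF1α∆IEC against control (SE; edgeR adjusted p = 0.999) and Epas1 one of -0.21 ± 0.46 (adjusted p = 1 by edgeR) in HIF2α∆IEC against control. The labels do not name the deleted exons, so this is only a partial check.

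Promoter sequences of 4 members are shown because they belong to the receptor complex (Cd3e), the co-receptor (Cd8a) and the granzymes (Gzma, Gzmb), genes with different roles that were highest in the same library. Each window runs from 250 bases before to 50 bases after the RefSeq start (GRCm38.p6), 5′ to 3′ on the gene's strand, and capitals mark matches to the motifs named below the sequences. The windows are chr9:45009562-45009861 (minus strand), chr6:71373177-71373476 (plus), chr13:113100932-113101231 (minus) and chr14:56262285-56262584 (minus).
Cd3e: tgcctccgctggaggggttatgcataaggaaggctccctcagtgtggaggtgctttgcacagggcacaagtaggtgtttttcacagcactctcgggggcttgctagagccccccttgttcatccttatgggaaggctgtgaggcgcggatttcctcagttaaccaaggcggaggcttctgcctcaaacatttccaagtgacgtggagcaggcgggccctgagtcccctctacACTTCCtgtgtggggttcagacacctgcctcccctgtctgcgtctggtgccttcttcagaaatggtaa
Cd8a: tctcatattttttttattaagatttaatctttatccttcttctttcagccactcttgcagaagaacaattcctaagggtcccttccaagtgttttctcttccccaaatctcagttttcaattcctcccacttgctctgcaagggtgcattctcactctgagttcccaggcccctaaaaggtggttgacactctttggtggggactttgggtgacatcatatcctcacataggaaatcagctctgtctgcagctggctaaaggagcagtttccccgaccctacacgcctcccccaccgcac
Gzma: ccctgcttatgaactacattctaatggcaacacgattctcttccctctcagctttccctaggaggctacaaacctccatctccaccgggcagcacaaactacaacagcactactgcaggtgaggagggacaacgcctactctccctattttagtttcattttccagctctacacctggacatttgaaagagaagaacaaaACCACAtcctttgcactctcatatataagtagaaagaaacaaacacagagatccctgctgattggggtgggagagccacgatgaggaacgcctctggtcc
Gzmb: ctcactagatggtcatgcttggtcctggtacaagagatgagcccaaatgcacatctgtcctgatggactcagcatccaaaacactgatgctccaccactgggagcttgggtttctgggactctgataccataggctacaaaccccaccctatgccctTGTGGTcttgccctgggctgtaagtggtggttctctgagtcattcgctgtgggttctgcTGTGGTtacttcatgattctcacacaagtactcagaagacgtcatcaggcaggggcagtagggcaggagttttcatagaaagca
Short strings of letters for 3 lymphocyte factor families were searched on both strands: TGTGGT for RUNX, GGAAGT for ETS and GGTGTG for T-box factors. Positions are counted from the start, with -1 the last base before it. For matches, plus is the strand printed above and minus its complement, whatever the genomic strand. Cd3e held the ETS string on the minus strand at -18 to -13, and Gzma held the RUNX string on the minus strand at -50 to -45. Gzmb held the RUNX string on the plus strand at -93 to -88 and again at -34 to -29, and Cd8a held none of them. No match in these windows overlapped another. Windows were at hand for 20 of the 33 members, and 19 with a start within 1000 bases of the deposited 5′ end of the gene were used. The RUNX string was in 9 of these 19 (47.4%) and in 16.8% of all 32851 windows, the ETS string in 10 (52.6%) and in 23.8%, and the T-box string in 6 (31.6%) and in 19%. A match is a description of letters and not a bound site.

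The T cell receptor complex was read through its signalling chains and through the β constant region. Cd3e (ENSMUSG00000032093, mm10 chromosome 9, 44998743 to 45009590), which encodes the CD3 ε chain, had 34.0, 30.7 and 59.9 CPM in HIF1α∆IEC. It had 171.6, 25.1 and 20.7 CPM in HIF2α∆IEC, against 29.9, 32.8 and 27.1 CPM in control. HIF2α∆IEC replicate 1 was thus above all others, the remaining pair below every control, and HIF1α∆IEC overlapped the controls. The log2 fold change of Cd3e was 0.48 ± 0.65 in HIF1α∆IEC against control and 1.28 ± 0.66 in HIF2α∆IEC against control (SE; edgeR adjusted p = 0.999 and 1), and the second value was -0.38 ± 0.30 without HIF2α∆IEC replicate 1. Trbc2 (chromosome 6, 41546730 to 41548352), the second constant region of the receptor β chain, had 17.2, 34.6 and 34.3 CPM in HIF1α∆IEC. It had 65.8, 9.40 and 6.01 CPM in HIF2α∆IEC, against 10.7, 12.4 and 8.84 CPM in control. All 3 HIF1α∆IEC libraries lay above all 3 controls, with a log2 fold change of 1.43 ± 0.72 that missed the threshold (edgeR adjusted p = 0.999). Trbc2 has a near-identical neighbour in Trbc1, so reads could be split between them. Cd3d, Cd3g and Cd247, the δ, γ and ζ signalling chains, were 6.49, 7.001 and 4.83 times the control mean in HIF2α∆IEC replicate 1.

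The receptor's other constant chains, and the alternative chain gene Fcer1g listed with them, were highest in the same library. Of the 6 genes of this list that were tested, which hold Trac, Trbc1, the γ constant regions Tcrg-C1, Tcrg-C2 and Tcrg-C4, and Fcer1g, 6 were highest in HIF2α∆IEC replicate 1. Trbc1 had 6.89, 11.7 and 13.8 CPM in HIF1α∆IEC and 46.2, 3.704 and 4.88 CPM in HIF2α∆IEC, against 5.71, 6.71 and 4.74 CPM in control. Tcrg-C2 had 12.7, 21.7 and 20.7 CPM in HIF1α∆IEC and 88.6, 5.73 and 6.68 CPM in HIF2α∆IEC, against 11.6, 14.1 and 8.95 CPM in control. Constant regions of the β and of the γ chain were thus both high in HIF2α∆IEC replicate 1. In the other pair of HIF2α∆IEC libraries Tcrg-C2 lay below every control. Trbc1 lay below every control in replicate 2 and inside the control range in replicate 3. No δ chain was among the genes tested, so αβ and γδ cells were not separated. Trbc1 and Tcrg-C2 were picked by p in HIF2α∆IEC against control and are examples.

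CD8α, encoded by Cd8a (chromosome 6, 71373427 to 71379171), forms the co-receptor that most of these cells carry. Cd8a had 33.9, 41.4 and 56.8 CPM in HIF1α∆IEC and 251.1, 20 and 21.9 CPM in HIF2α∆IEC, against 28.2, 44.5 and 35.3 CPM in control. HIF1α∆IEC overlapped the controls, and in HIF2α∆IEC 1 library was above and the other pair below them. The log2 fold change in HIF2α∆IEC against control was 1.44 ± 0.77 with all libraries and -0.76 ± 0.29 without replicate 1 (edgeR adjusted p = 1 and 1.00). Cd8b1, the CD8 β chain of conventional CD8 T cells, was 4.45 times the control mean in HIF2α∆IEC replicate 1, against 6.97 times for Cd8a. Cd7 (chromosome 11, 121036747 to 121039418), a surface immunoglobulin-family receptor, had 76.6, 63.8 and 151.3 CPM in HIF1α∆IEC. It had 299.7, 44.7 and 32.2 CPM in HIF2α∆IEC, against 59.0, 57.3 and 53.1 CPM in control. The HIF1α∆IEC libraries of Cd7 all lay above the controls, with a log2 fold change of 0.79 ± 0.68 that missed the threshold (edgeR adjusted p = 0.999).

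**Figure D2:**
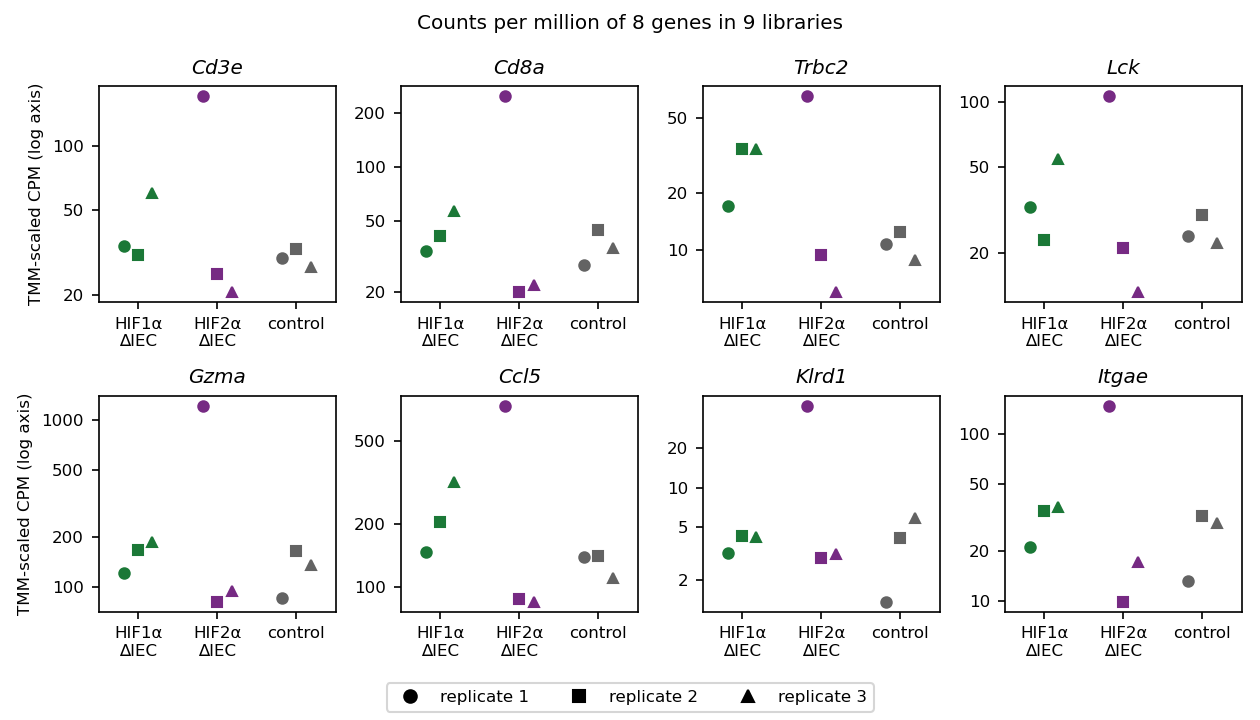
TMM-scaled CPM on log axes for 8 of the genes in the 3 groups, with 1 symbol per replicate. In every panel HIF2α∆IEC replicate 1 is the highest point, and for Trbc2 and Ccl5 the 3 HIF1α∆IEC points lie above the 3 controls.

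Receptors of activation and natural killer type recognition had some of the highest ratios to control in that library. Klrd1 (chromosome 6, 129591782 to 129598775), which encodes CD94 and pairs with NKG2 receptors, had 3.19, 4.28 and 4.21 CPM in HIF1α∆IEC. It had 41.5, 2.94 and 3.14 CPM in HIF2α∆IEC, against 1.37, 4.19 and 5.88 CPM in control. Apart from the 1 high library, both ∆IEC groups overlapped the controls. The other HIF2α∆IEC pair lay below every HIF1α∆IEC library, by as little as 3.14 against 3.19 CPM. Its log2 fold change in HIF2α∆IEC against control was 2.05 ± 0.90 (edgeR adjusted p = 1) and -0.32 ± 0.51 without replicate 1. Cd69, a lectin that holds lymphocytes in tissues, was low throughout, with 0.290, 0.634 and 0.392 CPM in HIF1α∆IEC and 3.56, 0.399 and 0.277 CPM in HIF2α∆IEC, against 0.195, 0.325 and 0.304 CPM in control. Its log2 fold change in HIF2α∆IEC against control was 2.32 ± 0.90 (edgeR adjusted p = 1), and 0.28 ± 0.60 without replicate 1, so Cd69 was 1 of the 2 members, with Xcl1, that kept a positive sign. Ptprc (chromosome 1, 138062861 to 138175708), the leukocyte phosphatase CD45, had 7.21, 47.3 and 13.7 CPM in HIF1α∆IEC and 66.8, 4.33 and 3.72 CPM in HIF2α∆IEC, against 7.47, 9.43 and 6.30 CPM in control. Ptprc was the 1 member above 4-fold in HIF1α∆IEC replicate 2, the other library of high mitochondrial share. The remaining receptors, namely Cd2, Cd5, Cd6, Cd52, Cd160, Thy1 and Il2rb, the receptor chain shared by interleukins 2 and 15, were 3.78 to 7.56 times the control mean in HIF2α∆IEC replicate 1.

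Genes of signalling proteins next to the receptor were also highest in HIF2α∆IEC replicate 1. Lck (chromosome 4, 129548344 to 129573641), the kinase bound to CD8, had 32.6, 23.1 and 54.2 CPM in HIF1α∆IEC and 106.5, 21.2 and 13.3 CPM in HIF2α∆IEC, against 24.02, 29.95 and 22.3 CPM in control. HIF1α∆IEC overlapped the controls, and the log2 fold change in HIF2α∆IEC against control was 0.89 ± 0.63 (edgeR adjusted p = 1), and -0.56 ± 0.35 without replicate 1. Zap70, the kinase recruited to the ζ chain, Lat, the adaptor it phosphorylates, and Rgs1, a brake on chemokine receptor signalling, were 4.81, 4.90 and 6.39 times the control mean in HIF2α∆IEC replicate 1. Of 32 further T cell receptor signalling genes tested, 24 were highest in that library, among them Prkcq, the protein kinase C θ of T cells, with 5.70 CPM there and 0.244 to 1.22 CPM in the other 8. Prkcq was picked by p in HIF2α∆IEC against control, so it is an example and not separate evidence. In HIF2α∆IEC against control 24 of the 32 were positive and 8 negative, with a median log2 fold change of 0.63. The edgeR test called 0 of the 32, with 0 at an unadjusted p under 0.05 (1.85% of all genes tested), and DESeq2 called 0. Without HIF2α∆IEC replicate 1, 5 of 31 were positive and 26 negative.

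The cytotoxic genes Gzma, Ccl5 and Gzmb were the most abundant members per kilobase in control. Gzma (chromosome 13, 113093825 to 113100979), which encodes granzyme A, had 120.2, 166.4 and 185.4 CPM in HIF1α∆IEC. It had 1222, 81.0 and 94.1 CPM in HIF2α∆IEC, against 85.7, 164.8 and 135.5 CPM in control. HIF2α∆IEC replicate 1 was 9.50 times the control mean. Outside it both ∆IEC groups overlapped the controls, and the other HIF2α∆IEC pair lay below every HIF1α∆IEC library. Gzmb (chromosome 14, 56258856 to 56262260), granzyme B, had 100.2, 79.9 and 132.4 CPM in HIF1α∆IEC and 644.1, 51.9 and 58.9 CPM in HIF2α∆IEC, against 91.2, 105.4 and 82.9 CPM in control. Ccl5 (chromosome 11, 83525778 to 83530518), a chemokine that T cells store, had 146.4, 204.8 and 316.7 CPM in HIF1α∆IEC. It had 739.5, 87.6 and 84.3 CPM in HIF2α∆IEC, against 138.0, 139.6 and 109.6 CPM in control. For Ccl5 every HIF1α∆IEC library was above every control, by as little as 146.4 against 139.6 CPM. The log2 fold changes of Gzma, Gzmb and Ccl5 in HIF2α∆IEC against control were 1.86 ± 0.83, 1.43 ± 0.76 and 1.23 ± 0.69 (edgeR adjusted p = 1 for each). Without replicate 1 they were -0.54 ± 0.30, -0.73 ± 0.25 and -0.57 ± 0.29. Fasl, the death ligand, Xcl1, a chemokine that attracts dendritic cells, and Nkg7, a granule membrane protein, were 10.5, 11.0 and 5.17 times the control mean in HIF2α∆IEC replicate 1.

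Set per kilobase of the deposited gene length, Gzma (146.5 ± 45.6 CPM per kb, SD, n = 3 controls) and Ccl5 (134.5 ± 17.6) had the highest control levels. Gzmb (65.7 ± 8.04), Cd7 (49.8 ± 2.67), Nkg7 (22.6 ± 5.12) and Cd3e (20.8 ± 2.0) came next, and Rgs1 (0.284 ± 0.155) and Cd69 (0.169 ± 0.0429) were last. Of the 32 neighbouring pairs in this order, 27 overlapped in their control values, so most neighbours are not distinguished; Ccl5 and Gzmb, and Gzmb and Cd7, were distinct. The deposited length was within 5% of the annotated exon length for 21 of the 33, which limits levels per length.

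Further granule and natural killer genes showed the same library on top: of 16 tested from this list, 14 were highest in HIF2α∆IEC replicate 1. Klre1 and Klra5, killer cell lectin-like receptors, had 5.61 and 5.57 CPM there, and at most 0.642 and 0.488 CPM in any other library. They were picked by p in HIF2α∆IEC against control, as were Cd244, Ctsw, Runx3 and Tbx21 below, so all are examples and not separate evidence. Cd244, a receptor of cytotoxic cells, had 2.5, 5.70 and 3.60 CPM in HIF1α∆IEC and 36.2, 3.56 and 3.26 CPM in HIF2α∆IEC, against 2.20, 6.18 and 6.11 CPM in control. Ctsw, a protease of cytotoxic lymphocytes, had 131.0 CPM in HIF2α∆IEC replicate 1 and 12.5 to 48.7 CPM elsewhere. The edgeR test called 0 of these 16 in HIF2α∆IEC against control, with 2 (Klre1 and Klra5, both higher) at an unadjusted p under 0.05 (0% and 1.85% of all genes tested), and DESeq2 called 0. Without HIF2α∆IEC replicate 1, 2 of the 16 were positive and 14 negative, with a median log2 fold change of -0.49. Transcription factors of these cells had a lower median. Runx3, which directs the CD8 lineage, had 44.0 CPM in HIF2α∆IEC replicate 1 and 5.49 to 13.2 CPM elsewhere, and Tbx21, which encodes T-bet, 14.6 CPM there and 1.73 to 5.81 CPM elsewhere. Of the 18 factors tested, 11 were highest in HIF2α∆IEC replicate 1. In HIF2α∆IEC against control 12 were positive, with a median log2 fold change of 0.62, and 11 were negative without replicate 1.

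Homing and retention receptors were high in the same library. Itgae (chromosome 11, 73090583 to 73147446), the αE integrin chain, had 21.02, 34.5 and 36.4 CPM in HIF1α∆IEC and 147.1, 9.89 and 17.2 CPM in HIF2α∆IEC, against 13.2, 32.4 and 29.3 CPM in control. Ccr9 (chromosome 9, 123678439 to 123783457), the small intestine homing receptor for CCL25, had 1.96, 3.17 and 3.32 CPM in HIF1α∆IEC and 21.6, 1.45 and 2.96 CPM in HIF2α∆IEC, against 1.61, 5.08 and 4.33 CPM in control. Outside HIF2α∆IEC replicate 1, both ∆IEC groups overlapped the controls for both genes. The other HIF2α∆IEC pair overlapped HIF1α∆IEC for Ccr9 but lay below every HIF1α∆IEC library for Itgae. Their log2 fold changes in HIF2α∆IEC against control were 1.22 ± 0.79 and 1.23 ± 0.81 (edgeR adjusted p = 1 for each), and -0.86 ± 0.42 and -0.71 ± 0.53 without replicate 1. Itgb7, the partner of αE, Cxcr6, the receptor for CXCL16, and Cxcr3, the receptor for CXCL9 and CXCL10, were 5.13, 12.4 and 4.40 times the control mean in that library. Reads of Cd247, Cd52, Cd160, Itgae, Ccr9 and Cxcr6 are uncertain, because each overlaps a protein-coding gene on the other strand and the strand setting of the counting is not given in the sources used here.

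The epithelial partners of these receptors did not form 1 pattern. Cdh1, E-cadherin, which αE integrin binds, had 967.1, 663.2 and 869.7 CPM in HIF1α∆IEC and 646.0, 841.5 and 950.6 CPM in HIF2α∆IEC, against 964.8, 866.3 and 920.9 CPM in control. Its lowest values were in the 2 libraries of high mitochondrial share. Il15 had 11.7, 6.39 and 7.03 CPM in HIF1α∆IEC and 26.0, 9.55 and 9.22 CPM in HIF2α∆IEC, against 10.7, 8.98 and 9.98 CPM in control. Il15 was highest in the library where the lymphocyte genes were highest, and so was Ccl25, the CCR9 ligand, with 480.9 CPM there and 259.1 to 409.5 CPM elsewhere. Tnfrsf14, which encodes the CD160 ligand HVEM, had 17.0 CPM in HIF2α∆IEC replicate 1 and 14.99 CPM in HIF1α∆IEC replicate 2, and 26.1 to 43.8 CPM in the other 7. Cxcl16 had 12.5 CPM in HIF2α∆IEC replicate 1, within its range of 5.04 to 12.7 CPM in the others. Of 25 partner genes tested, 13 were highest in HIF2α∆IEC replicate 1, as were 19.7% of all genes tested. Of the 25, 10 were positive in HIF1α∆IEC against control and 19 in HIF2α∆IEC against control, with medians of -0.14 and 0.13. Without HIF2α∆IEC replicate 1 the second comparison had 6 positive and 19 negative, with a median of -0.045. The edgeR test called 0 in both, with 1 (Clec2d, named after its values were seen) and 0 at an unadjusted p under 0.05 (3.87% and 1.85% of all genes tested), and DESeq2 called 0 in both.

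HIF1α∆IEC was compared with control to ask whether the lymphocyte transcripts differ when epithelial HIF1α is lost. The log2 fold change was positive for 31 of 33 members, where 52.7% of all genes tested were positive, and its median was 0.59, against 0.02 for all genes. Rgs1 and Ccr9 were the 2 negative members. There were 10 members that had every HIF1α∆IEC library above every control (background 4.6% of genes tested): Cd3d, Trbc2, Cd8b1, Cd2, Cd7, Cd52, Zap70, Nkg7, Ccl5 and Xcl1. Members varied together between libraries, with all 33 highest in HIF2α∆IEC replicate 1, so counts of members in any comparison are not separate results. The edgeR test called 0 of 33 members (background 0%), with 0 at an unadjusted p under 0.05 (background 3.87%, of which 2.91% higher and 0.969% lower). DESeq2 (background 0.0129%) and limma-voom also called 0. The count at an unadjusted p under 0.05, all higher, was 10 in the fit of the 6 libraries alone (4.35% of all genes tested in it), 18 with both libraries of high mitochondrial share left out (7.15%) and 22 with a term for sex (2.83%). The median was 0.29 without HIF1α∆IEC replicate 3. The median was 1.92 with the term for sex, which rests on male and female libraries within the ∆IEC groups. The only male HIF2α∆IEC library was replicate 1, so that median and the count of 22 lean on this 1 library. Among male libraries the members summed to 800.7 CPM in HIF1α∆IEC, against 635 to 822.3 CPM in control. Trbc2 and Ptprc had the largest fold changes among the members described above, at 1.43 ± 0.72 and 1.55 ± 0.99 on the log2 scale (SE; edgeR adjusted p = 0.999 for each), and Ptprc was at 0.40 without HIF1α∆IEC replicate 2.

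HIF2α∆IEC was compared with control for the same question about HIF2α. It shares its controls with the comparison above. The log2 fold change was positive for 33 of 33 members (background 52.9%), with a median of 1.23, against 0.01 for all genes. No member had groups that did not overlap (background 3.03% higher and 2.51% lower), since HIF2α∆IEC replicate 2 or 3 always reached into or below the controls. The edgeR test called 0 of 33 (background 0%), with 7 at an unadjusted p under 0.05, all higher (background 1.11% higher, 0.743% lower, 1.85% in either direction): Cd69, Cd160, Klrd1, Gzma, Fasl, Xcl1 and Cxcr6. DESeq2 (background 0.0323%) and limma-voom called 0. The sign rested on 1 library: without HIF2α∆IEC replicate 1, 2 members were positive and 31 negative, with a median of -0.43, 0 called and 2 at an unadjusted p under 0.05, both lower (3.01% of all genes tested in that fit). The count, all higher, was 27 without HIF2α∆IEC replicate 2 (3.54%) and 29 without replicate 3 (3.77%). Limma-voom gave a median of 0.48 with all libraries. By role, the median log2 fold change with all libraries was 1.34 for the receptor complex, 1.15 for co-receptors and surface receptors, 1.09 for receptor-proximal signalling, 1.64 for cytotoxic effectors and chemokines, and 1.22 for homing and retention. Without that library the 5 medians were -0.38, -0.43, -0.37, -0.53 and -0.56.

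**Figure D3:**
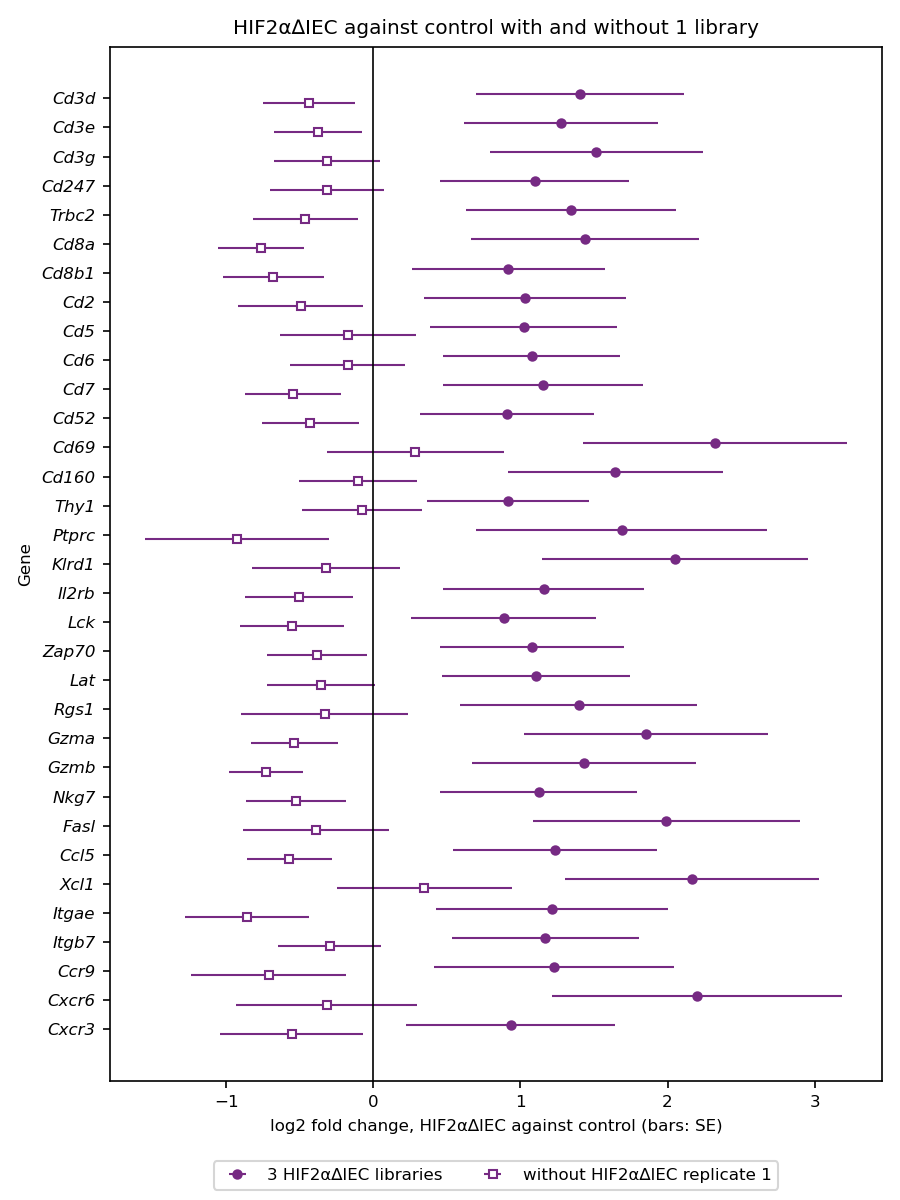
Log2 fold change of each of the 33 genes in HIF2α∆IEC against control (bars are SEs derived from the edgeR F statistic), with all 3 HIF2α∆IEC libraries (filled circles) and without replicate 1 (open squares). The circles are all above 0, and the squares are below 0 for 31 of the 33 genes.

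HIF2α∆IEC and HIF1α∆IEC were also compared directly, which shares libraries with both comparisons above. The log2 fold change was positive for 30 of 33 members (background 51.6%), with a median of 0.59, against 0.01 for all genes. The edgeR test called 0 of 33 (background 0%), with 1 higher at an unadjusted p under 0.05 (background 2.31% higher, 4.29% lower, 6.59% in either direction). DESeq2 (background 0.0969%) and limma-voom called 0. That member was Klrd1, at 2.03 ± 0.90 on the log2 scale (edgeR adjusted p = 0.745), and at -0.31 without HIF2α∆IEC replicate 1. No member had groups that did not overlap (background 4.37% higher and 6.08% lower). Without HIF2α∆IEC replicate 1, 1 member was positive and 32 negative, with a median of -0.96. In that fit 0 members were called by edgeR and 22 were at an unadjusted p under 0.05, all lower (8.58% of all genes tested in either direction). With all libraries the median was -0.06 by limma-voom, with 15 positive, -0.14 with a term for sex and 0.17 with the replicate number as a block. It was 0.95, 0.95 and 1.02 without HIF1α∆IEC replicate 3, HIF2α∆IEC replicate 2 and HIF2α∆IEC replicate 3.

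The proportions among the lymphocyte genes were read within each library. Each gene's CPM was divided by that of Cd3e and set against the mean of the same ratio in the controls, on the log2 scale. In HIF2α∆IEC replicate 1 the ratios of the 32 other members had a median of 0.016, and 30 of the 32 were within 1 log2 unit of the control ratio. The 2 beyond it were Cd69 at 1.17 and Cxcr6 at 1.10. A ratio above that of every other library was found for 6 genes, namely Cd8a, Cd69, Klrd1, Gzma, Gzmb and Fasl, and a ratio below it for 6, namely Cd247, Cd52, Lck, Zap70, Lat and Itgb7. The remaining 20 lay inside the range of the other libraries. In HIF1α∆IEC replicate 2 the median ratio was 0.42, with Ptprc at 2.58 and Trbc2 at 1.66. These ratios are a description, since all rest on the Cd3e count of the same library.

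**Figure D4:**
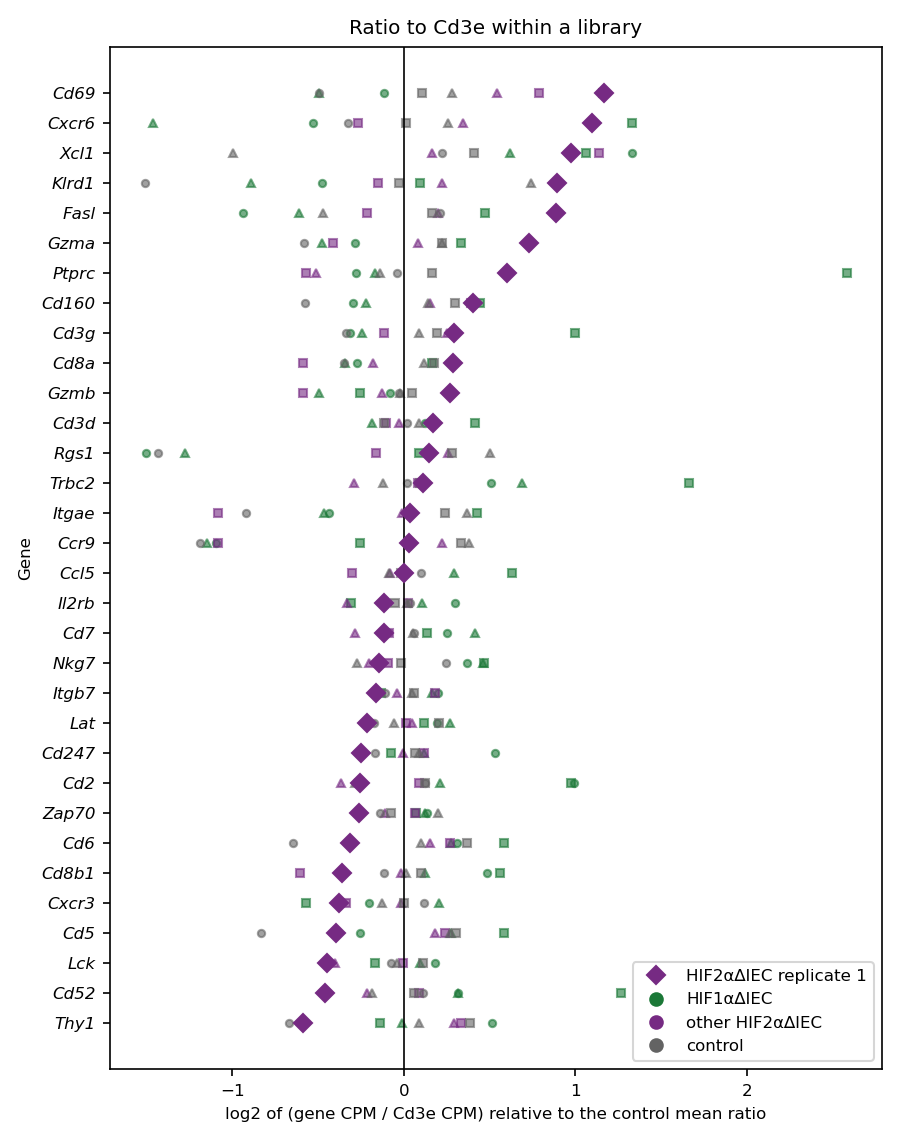
Log2 of each gene's CPM over that of Cd3e in the same library, relative to the control mean ratio, for the 32 other genes (rows, sorted by HIF2α∆IEC replicate 1, drawn as diamonds). The diamonds run from -0.59 for Thy1 to 1.17 for Cd69, and the point farthest from 0 is Ptprc in HIF1α∆IEC replicate 2, at 2.58.

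Markers of other cell types were read in the same libraries, and their part in the results was not tested. Summed B and plasma cell markers were at 2044 CPM in HIF2α∆IEC replicate 1 and at 461.9 to 665.8 CPM in the others. Among them Igha, the heavy chain of immunoglobulin A, had 927.4 CPM in that library and 49.0 to 165.8 CPM elsewhere, whereas Xbp1, a factor that secretory epithelial cells also use, had 248.0 CPM, inside its range of 213.1 to 383.1 CPM in the others. Markers of Peyer patch and germinal centre summed to 142.2 CPM in that library, inside the range of 99.7 to 170.0 CPM of the others, although 6 of the 12 tested were highest there. Erythroid markers summed to 118.9 CPM there and to 2.90 to 23.8 CPM elsewhere. Macrophage and dendritic cell markers summed to 122.8 CPM there and to 53.0 to 113.6 CPM elsewhere, and stroma, muscle and endothelium markers to 24.3 CPM and 10.4 to 18.9 CPM. Markers of other leukocytes summed to 149.9 CPM there and 86.3 to 172.6 CPM elsewhere, with the neutrophil gene Ly6g, named after its values were seen, at 0 counts in all 9 libraries. Small intestine epithelium markers summed to 32620 CPM in HIF2α∆IEC replicate 1, inside the range of 27170 to 36870 CPM of the others, and they were the most abundant of these marker lists in all 9. HIF2α∆IEC replicates 2 and 3 had 19.15 and 13.24 CPM of erythroid markers, against 3.07 to 7.15 CPM in control. For stroma, muscle and endothelium markers they had 16.4 and 18.9 CPM, against 10.4 to 11.8 CPM in control. Without HIF2α∆IEC replicate 1, median log2 fold changes against control were 1.81 for erythroid and 1.85 for stroma, muscle and endothelium markers. They were 0.14 for macrophage and dendritic cell, -0.79 for B and plasma cell and -0.45 for Peyer patch and germinal centre markers. The members' median in that fit was -0.43. In HIF1α∆IEC, the macrophage list held the 2 genes that DESeq2 called against control, C1qb and C1qc (named after their values were seen). C1qb had 2.65, 9.50 and 11.2 CPM in HIF1α∆IEC, against 1.42, 1.22 and 1.71 CPM in control, so it was high in the 2 libraries where the members were also higher than in replicate 1.

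**Figure D5:**
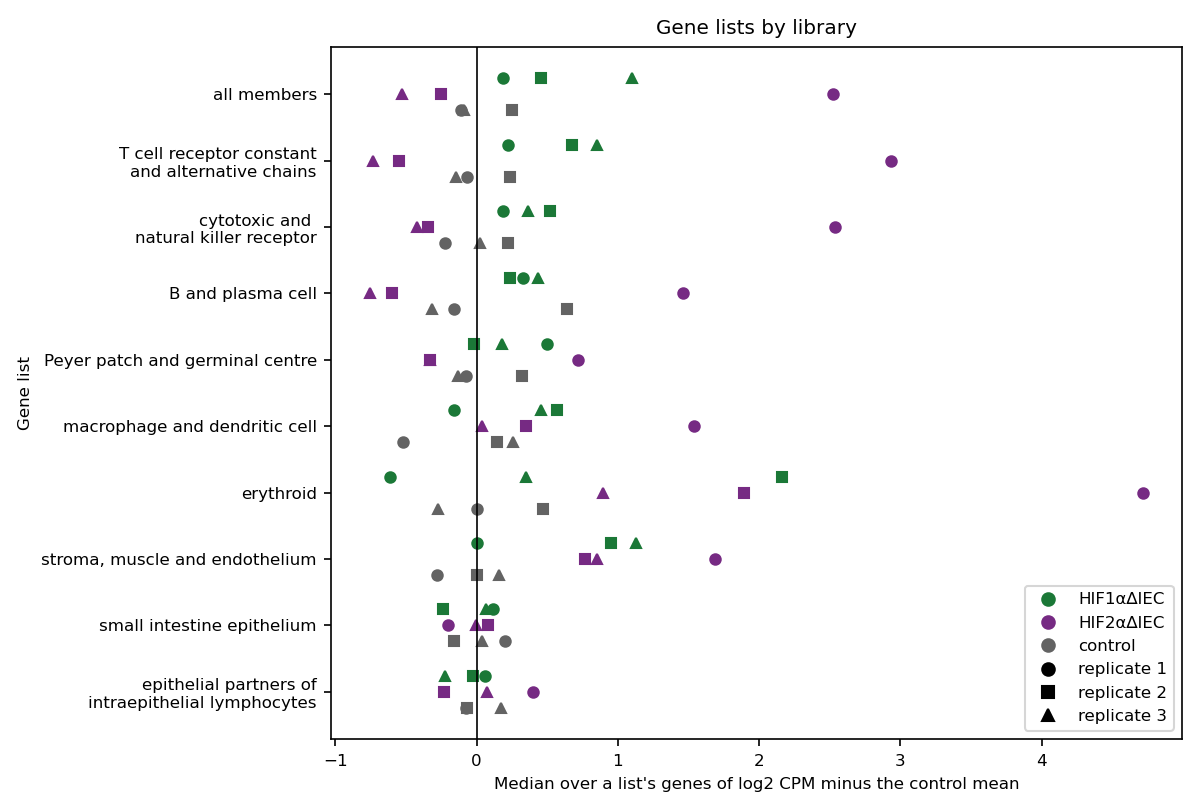
Median over each gene list of log2 CPM minus the control mean (horizontal axis), by library, for the members, related lymphocyte lists and marker lists of other cells. HIF2α∆IEC replicate 1 is the rightmost point of every list drawn except that of the epithelium, where it lies left of 0.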

How the data were processed

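RNA of small intestine epithelial cells was extracted with TRIzol and made into libraries with Illumina's TruSeq chemistry, per the labels' protocols. The authors deposited 1 table of raw counts per gene, with mm10 coordinates and gene lengths, and it was used as deposited. CASAVA and Bowtie 0.12.2 are named in the submitters' processing notes. Not given in the sources used here are the tool, annotation and strandedness of the counting step. The 33 members and all lists were chosen with earlier results of these data known. They were matched by gene name, grouped by role, and all of them are reported. Of each related list the 4 genes of smallest p in HIF2α∆IEC against control could be named, with 5 ligands or partners of members, and of each marker list the 2 of highest level. Genes picked by p are examples and not separate evidence. Genes named outside this rule are marked so.

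The analysis used edgeR 4.0.16 under R 4.3.3. All genes were filtered with filterByExpr, scaled by TMM and fitted by group over all 9 libraries, with 6 residual degrees of freedom. Quasi-likelihood F tests are two-sided, with Benjamini-Hochberg adjustment over 15486 genes, called under 0.05. The SE of an edgeR log2 fold change is its absolute value divided by the square root of its F statistic. Log2 CPM used a prior count of 2. Alternatives were RLE size factors, DESeq2 1.42.0, limma-voom (limma 3.58.1), no count filter, a CPM of at least 1 in 3 libraries, a fit of only the 6 libraries of a comparison, a replicate block and the omission of each library in turn. After seeing the data, further alternatives were leaving out HIF1α∆IEC replicate 2 and HIF2α∆IEC replicate 1 together, and a term for sex. Fits were also run on simulated counts with fold changes placed in all HIF2α∆IEC libraries alike. The simulation held no outlying library and no genes that vary together, so it does not cover the pattern described here. Deviations of same-numbered libraries correlated between -0.37 and 0.237, so the numbers were not taken as pairs. Library pairs within a group had a chi-square of 43.6 or more per gene, and the closest pairs between groups 17.7 (HIF1α∆IEC replicate 1 with control replicate 1) and 24.9 (HIF2α∆IEC replicate 3 with control replicate 3). All lay far above counting noise, so none was taken for a repeat deposit. Gene lengths were set against GENCODE M21 exons, and promoters came from RefSeq.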

Additional observations from a re-analysis of the deposited data

How the results depend on the processing

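No member was called in any of 15 alternatives of each comparison. The smallest adjusted p of any member over them was 0.569 for HIF1α∆IEC against control, 0.530 for HIF2α∆IEC against control and 0.267 for HIF2α∆IEC against HIF1α∆IEC. Of all genes tested, DESeq2 called 2, 5 and 15 in these comparisons, the fit with no count filter 1, 5 and 10, and the fit with the replicate number as a block 1, 2 and 0. Leaving out 1 library gave 0 to 1 calls in each. The members' median log2 fold change in HIF1α∆IEC against control was 1.92 with a sex term. Fits with that term lean on HIF2α∆IEC replicate 1, the only male library of its group. The median in HIF2α∆IEC against control ran from -0.43 to 1.68 over the libraries left out, and in HIF2α∆IEC against HIF1α∆IEC from -0.96 to 1.02. With the 2 libraries that stood apart left out, these 2 medians were -0.43 and -1.06, and 1 gene was called in HIF2α∆IEC against control. The causes were not tested.

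The number of members at an unadjusted p under 0.05 ran over these alternatives from 0 to 22 (all higher) in HIF1α∆IEC against control and from 0 to 30 in HIF2α∆IEC against control (the 30, all higher, with a sex term). In HIF2α∆IEC against HIF1α∆IEC it ran from 0 to 23, the 23 all lower and with the 2 libraries left out.

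The sign turned for 31 of 33 members in HIF2α∆IEC against control without HIF2α∆IEC replicate 1. In HIF2α∆IEC against HIF1α∆IEC it turned for 29 without that library, 27 with the 2 libraries left out, 20 with a sex term, 15 by limma-voom and 6 with the replicate block. In HIF1α∆IEC against control it turned for at most 4 in any alternative. The values that follow cover only members whose fold change is given above. In HIF1α∆IEC against control, Klrd1 was at -0.0070 with no count filter, -0.082 with the replicate block and -0.095 with the 2 libraries left out, and Ccr9 was at 1.11 with a sex term. Over the libraries left out, Klrd1 ran from -0.41 to 0.48, Gzmb from -0.060 to 0.29 and Itgae from -0.049 to 0.53. In HIF2α∆IEC against control with the 2 libraries left out, Cd3e was at -0.38, Trbc2 -0.46, Cd8a -0.76, Cd7 -0.55, Ptprc -0.93, Klrd1 -0.32, Lck -0.56, Gzma -0.54, Gzmb -0.73, Ccl5 -0.57, Itgae -0.86 and Ccr9 -0.71. Over single libraries left out, the ranges were -0.38 to 1.71 for Cd3e, -0.46 to 1.81 for Trbc2, -0.76 to 1.92 for Cd8a, -0.55 to 1.60 for Cd7, -0.93 to 2.20 for Ptprc, -0.32 to 2.54 for Klrd1 and -0.56 to 1.32 for Lck. They were -0.54 to 2.35 for Gzma, -0.73 to 1.91 for Gzmb, -0.57 to 1.68 for Ccl5, -0.86 to 1.71 for Itgae and -0.71 to 1.73 for Ccr9. The lowest value was in each case the one without HIF2α∆IEC replicate 1. Klrd1 in HIF2α∆IEC against HIF1α∆IEC was at -0.23 with the 2 libraries left out and ran from -0.31 to 2.51 over single libraries left out. Members below 1 CPM, such as Cd69, rest on few reads, and 3 libraries per group limit the precision of every fold change.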
